A study of Mus musculus with 4 samples.

Results

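The 35 genes described here encode chaperones, disulfide isomerases, degradation factors, stress sensors and translocation channel subunits of the endoplasmic reticulum (ER). They were chosen by name, 1 probe per gene being the one with the highest mean signal over the arrays, and all 35 of 35 were among the 22472 genes tested. The signals come from 4 single-colour Agilent arrays of cultured mouse regulatory T (Treg) cells. Of these, 2 arrays carry the genotype label Junbfl/flCd4-Cre, here called the arrays labelled Junb-deficient, and 2 carry Junbfl/fl, here called controls. All samples are labelled C57BL/6 and all carry floxed Junb alleles, so the genotypes differ by the Cre transgene, which the Cd4 promoter drives in T cells. The labels give no ages.

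Per the labels' protocols, sorted naive CD4 T cells were cultured for 3 days on plate-bound anti-CD3 (1 μg/ml) with anti-CD28 (0.5 μg/ml), blocking antibodies to IFN-γ and IL-4 (5 μg/ml each) and TGF-β1 (5 ng/ml). The extraction label names colon, in conflict with the other labels. No label ties the arrays to separate animals or culture wells, so each p-value reflects array-to-array spread that could be wholly technical. With 2 arrays per genotype, no permutation test can pass 0.05, and the number of arrays limits the precision.

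Secreted and membrane proteins enter the ER through the Sec61 channel, are folded by chaperones such as BiP, and are sent back to the cytosol for destruction when folding fails. Unfolded protein in the ER activates the sensors IRE1, ATF6 and PERK. IRE1 splices Xbp1 mRNA into a form that encodes an active transcription factor, ATF6 is cut to release another, and PERK slows translation and favours that of ATF4. Spliced XBP1 and cleaved ATF6 raise ER chaperone and degradation genes through promoter elements called ER stress elements. The splicing itself is not read by the signal of a gene-level probe. Activated T cells, which secrete cytokines and enlarge their ER, use this response. JunB belongs to the AP-1 family of transcription factors.

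The ER stress element (ERSE) was searched on both strands, as CCAAT and CCACG with 9 bases of any kind between them, in RefSeq promoter windows of build GRCm38.p6, from 250 bases before to 50 bases after each transcript start. A window was available for 28 of the 35 genes, and 9 of these 28 (32.1%) held the element, against 37 of 27025 genes (0.137%) over all windows. The 9 genes were Hspa5, Hsp90b1, Pdia6, Creld2, Canx, Calr, Syvn1, Dnajc3 and Derl3, and Hsp90b1 held it at 2 positions. The shorter ERSE-II (ATTGG and CCACG with 1 base between them) was found in Herpud1 and Dnajb11, or 7.14% of the 28 genes, against 0.0444% of all genes. The element TGACGTGG was in none of the 28 windows and in 0.714% of all genes. A match is a description of these letters and not evidence of binding.

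The sites are shown because spliced XBP1 and cleaved ATF6 act through such elements. They were not found in every gene of the list, and the sites are set against the signals further down. Each site before the transcript start is printed 5′ to 3′ along its gene with 10 flanking bases on each side. The Dnajb11 site lies after the start and is not printed. Capitals mark the element (CGTGG at its left end means that it lies on the opposite strand).
Hspa5, chr2:34772015-34772053, plus strand: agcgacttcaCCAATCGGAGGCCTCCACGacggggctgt
Hsp90b1, chr10:86705628-86705666, minus strand: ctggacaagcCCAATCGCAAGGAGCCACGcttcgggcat
Hsp90b1, chr10:86705523-86705561, minus strand: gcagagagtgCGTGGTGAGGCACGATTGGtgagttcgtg
Pdia6, chr12:17266481-17266519, plus strand: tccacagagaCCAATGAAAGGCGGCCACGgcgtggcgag
Creld2, chr15:88819510-88819548, plus strand: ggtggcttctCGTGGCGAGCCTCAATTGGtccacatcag
Canx, chr11:50325790-50325828, minus strand: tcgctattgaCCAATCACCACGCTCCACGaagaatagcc
Calr, chr8:84847065-84847103, minus strand: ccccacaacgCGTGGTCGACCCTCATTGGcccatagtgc
Syvn1, chr19:6046522-6046560, plus strand: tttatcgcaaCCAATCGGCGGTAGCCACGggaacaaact
Dnajc3, chr14:118937817-118937855, plus strand: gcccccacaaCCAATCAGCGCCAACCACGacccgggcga
Derl3, chr10:75893232-75893270, plus strand: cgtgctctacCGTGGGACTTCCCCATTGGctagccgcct
Herpud1 (ERSE-II), chr8:94386367-94386397, plus strand: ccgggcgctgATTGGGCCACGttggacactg

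The whole 250 bases before the start are given for the genes of the main ER members of the Hsp70 and Hsp90 families, with elements in capitals.
Hspa5, chr2:34771840-34772089, plus strand: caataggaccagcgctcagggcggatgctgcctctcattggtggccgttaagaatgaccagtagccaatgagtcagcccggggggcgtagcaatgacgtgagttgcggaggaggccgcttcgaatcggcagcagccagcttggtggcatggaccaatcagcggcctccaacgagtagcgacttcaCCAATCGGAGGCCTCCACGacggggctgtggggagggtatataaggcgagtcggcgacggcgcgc
Hsp90b1, chr10:86705445-86705694, minus strand: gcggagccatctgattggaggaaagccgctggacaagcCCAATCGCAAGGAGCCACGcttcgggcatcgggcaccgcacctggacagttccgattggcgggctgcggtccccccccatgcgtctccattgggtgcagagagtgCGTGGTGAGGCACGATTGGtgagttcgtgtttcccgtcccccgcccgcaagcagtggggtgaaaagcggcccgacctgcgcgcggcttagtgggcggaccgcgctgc

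Junb was read first. Its probe in the body of the gene (mm9 chr8:87501881-87501940) had relative signals of 0.0344 and 0.0146 on the arrays labelled Junb-deficient (neither well above background), against 0.312 and 0.219 on the controls. A relative signal is the processed signal divided by the array's 75th percentile over probes. The brightest Junb probe (mm9 chr8:87500843-87500902) read 8.82 on array 1 and 99.8 on array 2 labelled Junb-deficient, against 64.7 and 62.7 on the controls. Array 2 therefore goes against its label by this probe, whose place relative to the floxed part is not known here. Genotypes are named by their labels throughout, and values without array 2 are given beside the main results. Pearson correlations across genes were 0.978 between the arrays labelled Junb-deficient, 0.982 between the controls and 0.933 to 0.955 between genotypes.

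Most ER genes read lower on the arrays labelled Junb-deficient, by a modest amount, and none passed the test. The log2 difference (labelled Junb-deficient minus control) was below 0 for 29 of the 35, with a median of -0.49 and a range from -1.22 (Sdf2l1) to 0.40 (Edem3). Over all genes tested the median was 0.01 and 49.5% were below 0. The size of the median depended on the scaling: it was -0.24 with quantile normalization, where 25 of the 35 were below 0, and -1.02 with median scaling, where all 35 were and the median of all genes was -0.52. At an adjusted p under 0.05 in limma, 0 of the 35 were called, against 8.44% of all genes (1.42% lower and 7.02% higher), and the lowest adjusted p was 0.0501, for Manf. An unadjusted p under 0.05 was reached by 15 of the 35, all lower, against 19.1% of all genes lower and 41.4% in either direction. All 35 probes were well above background on all 4 arrays, so no member needed a bound. The count of 0 depended on the setting. With median scaling 24 were called (33.1% of all genes lower), with array number as a block 9 (9.31%), with genes well above background on all 4 arrays 2 (1.55%) and with the mean of probes 1 (1.35%). In bulk RNA fewer cells of a type and less RNA per cell cannot be told apart.

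**Figure D1:**
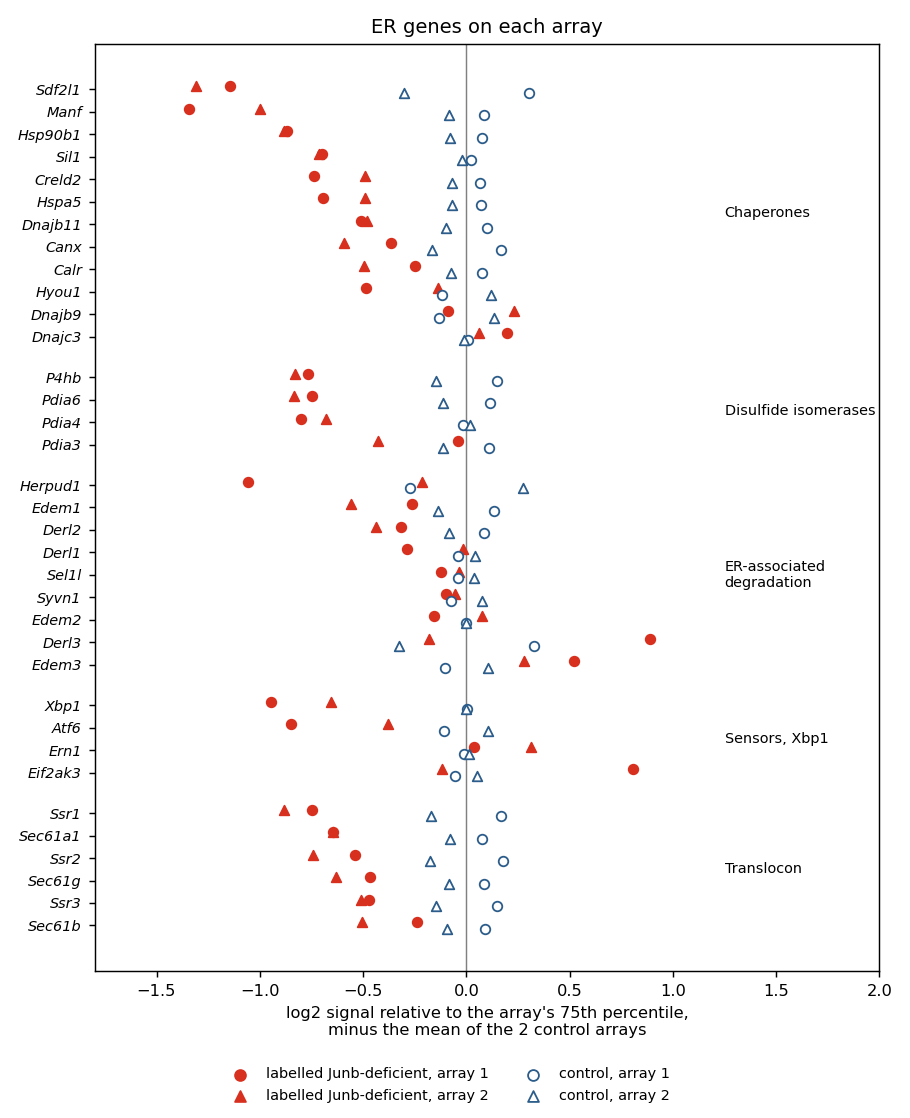
Each row is a gene and each point an array: log2 relative signal minus the mean of the control arrays, filled for arrays labelled Junb-deficient and open for controls, circles for number 1 and triangles for number 2. The filled points lie left of the open ones in 23 of the 35 genes, against 38.5% of all genes. All 6 translocon genes are among these 23, while most degradation genes overlap.

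The genotypes did not overlap, with the arrays labelled Junb-deficient lower, in 23 of the 35 genes, against 38.5% of all genes. They did not overlap in the other direction in 3 genes (Edem3, Ern1 and Dnajc3), against 36.6%. Between arrays of the same number, 28 genes were lower in both comparisons, 5 higher in both and 2 mixed, with medians of -0.55 for number 1 and -0.42 for number 2. Without array 2 labelled Junb-deficient, 30 of the 35 were below 0, with a median of -0.47.

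The ER genes are bright on these arrays, and bright genes as a whole read lower on the arrays labelled Junb-deficient. All genes were therefore divided into deciles by their mean control signal. The median log2 difference was 1.83 in the dimmest decile and -0.41 in the brightest. The dim end is partly set by selection, since a gene dim on the controls could be tested through the arrays labelled Junb-deficient alone, and 52.5% of the dimmest decile was well above background on no control array. With only genes well above background on all 4 arrays, the dimmest decile had a median of 0.79 and the brightest -0.40. Since the control signal enters both the decile and the difference, deciles by the mean over all 4 arrays were also used. There the dimmest had a median of 1.24 and the brightest -0.35. The ER genes were all measured on every array, and 21 of the 35 ER genes fell in the 2 brightest deciles by control signal. In those 2 deciles 74.2% of all genes were lower without overlap, and 18 of the 21 ER genes were. At an unadjusted p under 0.05, 40.3% of the genes there and 13 of the 21 ER genes were lower. At an adjusted p under 0.05, 2.09% of the genes there and 0 of the 21 were lower. Their median log2 difference was -0.61, against -0.41 for all genes of the 2 deciles.

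With each gene's own decile median subtracted, 22 of the 35 ER genes lay below 0 and the median was -0.14. The median before that subtraction was -0.49. With deciles by the mean over all 4 arrays, the median after it was -0.20. Sdf2l1 and Manf lay furthest out, with only 4.32% and 4.19% of the genes of their deciles lower. Hsp90b1 followed at 10.4%, and Xbp1, Ssr1 and Pdia6 lay between 13.6% and 14.6%. At the other end, 86.6% of the genes of its decile were lower than Eif2ak3.

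**Figure D2:**
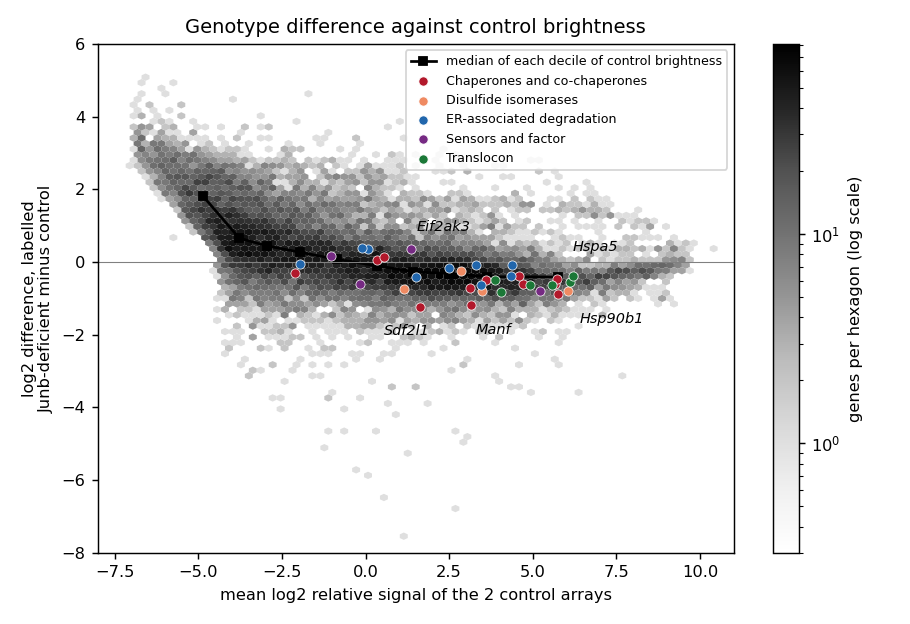
The log2 difference (labelled Junb-deficient minus control) is plotted against the mean log2 relative signal of the control arrays for all 22472 genes in grey hexagons, with squares for the median of each decile and coloured points for the ER genes by role. The line of medians runs from 1.83 to -0.41, and most ER genes lie on or a little below its bright end.

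The medians of the chaperones, the disulfide isomerases and the translocon genes were below 0 under all 12 alternative settings. Chaperones and co-chaperones had a median log2 difference of -0.54 (12 genes, 10 below 0), or -0.19 relative to their deciles. Hspa5 encodes BiP, the central Hsp70 chaperone of the ER. Its relative signal was 31.2 and 36.0 on the arrays labelled Junb-deficient, against 52.9 and 48.1 on the controls. The groups did not overlap, and the log2 difference was -0.59 ± 0.16 (SE, 2 arrays per genotype; adjusted p = 0.0863). Both other Hspa5 probes gave lower values as well, at -0.50 and -0.41. Hsp90b1, which encodes the ER chaperone GRP94, read 29.5 and 29.2 on the arrays labelled Junb-deficient, against 56.8 and 51.0 on the controls. That is 1.83-fold lower (log2 -0.87 ± 0.15, adjusted p = 0.0515), with each array labelled Junb-deficient close to the other.

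Sdf2l1, a partner of the ER Hsp40 proteins and a gene strongly raised by ER stress, gave 1.39 and 1.24 on the arrays labelled Junb-deficient, against 3.78 and 2.49 on the controls. The controls differed from each other more than the arrays labelled Junb-deficient did, and the log2 difference was -1.22 ± 0.26 (2.34-fold lower, adjusted p = 0.0653). Manf, a stress-induced ER protein that binds BiP, read 3.48 and 4.41 on the arrays labelled Junb-deficient, against 9.36 and 8.32 on the controls. It was 2.25-fold lower, at -1.17 ± 0.20 (adjusted p = 0.0501), and its other probe gave -1.29. Creld2, a further stress-induced ER protein, read 15.5 and 18.4 on the arrays labelled Junb-deficient, against 27.1 and 24.7 on the controls (log2 -0.61 ± 0.17). Sil1, the nucleotide exchange factor of BiP, gave -0.71 ± 0.14, also without overlap, but its sign turned to 0.29 with the mean of probes. Its other probes gave -0.39 and -0.38, and 2.63 for a probe well above background on only 2 arrays. Without array 2 labelled Junb-deficient, Sdf2l1, Manf and Hsp90b1 gave -1.14, -1.34 and -0.87.

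The lectin chaperones, which hold glycoproteins during folding, differed less. Calr (calreticulin) read 20.1 and 17.0 on the arrays labelled Junb-deficient, against 25.2 and 22.7 on the controls. Its log2 difference of -0.37 ± 0.17 was close to the median of its decile. Canx (calnexin) gave -0.48 ± 0.20, and Dnajb11, an Hsp40 partner of BiP, gave -0.50 ± 0.16, both without overlap. Hyou1, an Hsp110-type exchange factor, was dim here, at 0.165 and 0.210 on the arrays labelled Junb-deficient against 0.212 and 0.251 on the controls. Its 4 probes disagreed, with log2 differences from -0.49 to 1.20, so its direction is not settled.

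Not every co-chaperone read lower.
Dnajb9 (ERdj4), an Hsp40 protein induced through IRE1 and XBP1, read 1.20 and 1.49 on the arrays labelled Junb-deficient, against 1.16 and 1.40 on the controls. The groups overlapped, with a log2 difference of 0.07 ± 0.20. Dnajc3 (p58IPK), an ER Hsp40 protein, read 1.67 and 1.52 on the arrays labelled Junb-deficient, against 1.47 and 1.45 on the controls. Its log2 difference was 0.13 ± 0.15 (adjusted p = 0.518). These p-values do not show that either gene was unchanged.

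The disulfide isomerases, which form and rearrange disulfide bonds in newly made proteins, had the lowest median of the 5 roles. It was -0.77 over 4 genes, or -0.39 relative to their deciles. P4hb, the prototype isomerase PDI, read 6.59 and 6.30 on the arrays labelled Junb-deficient, against 12.4 and 10.1 on the controls (log2 -0.80 ± 0.18, adjusted p = 0.0671). Pdia6 read 39.9 and 37.5 on the arrays labelled Junb-deficient, against 72.5 and 61.8 on the controls, for a log2 difference of -0.79 ± 0.16. Pdia4 read 1.28 and 1.40 on the arrays labelled Junb-deficient, against 2.21 and 2.26 on the controls. Its difference of -0.74 ± 0.15 had the lowest adjusted p of the 4 genes, at 0.0602. These 3 genes were lower without overlap, against 38.5% of all genes. Pdia3 (ERp57), the isomerase that works with calnexin and calreticulin, read 7.02 and 5.38 on the arrays labelled Junb-deficient, against 7.81 and 6.70 on the controls. There the groups overlapped, with -0.24 ± 0.21, and the sign turned to 0.0058 and 0.017 when quantile normalization was used without and with normexp background.

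The translocon genes were all lower without overlap, with a median of -0.59, or -0.18 relative to their deciles. All 6 lay in the 2 brightest deciles, where 74.2% of all genes were lower without overlap. Sec61a1 encodes the pore subunit of the channel and read 19.2 on both arrays labelled Junb-deficient, against 31.6 and 28.4 on the controls. Its log2 difference was -0.64 ± 0.15 (1.56-fold lower, adjusted p = 0.0709). The small channel subunits Sec61g and Sec61b gave -0.55 ± 0.16 and -0.37 ± 0.18. Ssr1, a subunit of the translocon-associated protein complex, read 9.81 and 8.92 on the arrays labelled Junb-deficient, against 18.5 and 14.6 on the controls (log2 -0.81 ± 0.19). Ssr2 and Ssr3 of the same complex gave -0.64 ± 0.20 and -0.49 ± 0.17. Of the 6, only Sec61b lay above the median of its decile.

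The genes of ER-associated degradation, which recognise misfolded proteins and move them to the cytosol, stood nearest to 0. Their median was -0.08 over 9 genes, and 0.16 above their deciles. With quantile normalization, normexp or the mean of probes the median itself turned positive (0.072, 0.049 and 0.074). Syvn1, the ubiquitin ligase HRD1 at the core of this machinery, read 19.6 and 20.2 on the arrays labelled Junb-deficient, against 19.8 and 22.1 on the controls. Sel1l, its partner, read 9.13 and 9.69 on the arrays labelled Junb-deficient, against 9.67 and 10.2 on the controls. For both genes the groups overlapped, and their differences of -0.08 were smaller than their standard errors of 0.15 and 0.14. About 79% of the genes of their deciles (78.9% and 78.7%) had a lower difference.

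The derlins, membrane proteins of the same machinery, did not share a direction. Derl2 read 16.3 and 15.02 on the arrays labelled Junb-deficient, against 21.5 and 19.2 on the controls (log2 -0.38 ± 0.16). Derl1 gave -0.15 ± 0.17, and its second probe 0.30. Derl3, the derlin most strongly raised by ER stress, read 1.97 and 0.938 on the arrays labelled Junb-deficient, against 1.33 and 0.846 on the controls. The arrays numbered 1 were the higher ones in both genotypes, and the difference of 0.35 ± 0.47 was smaller than its error.

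Edem1, Edem2 and Edem3 encode mannosidase-like proteins that mark glycoproteins for degradation. Edem1 read 2.39 and 1.95 on the arrays labelled Junb-deficient, against 3.15 and 2.61 on the controls, for a log2 difference of -0.41 ± 0.20. Edem2 gave -0.04 ± 0.16. Edem3 read 1.32 and 1.12 on the arrays labelled Junb-deficient, against 0.856 and 0.990 on the controls. It had the highest difference of the 35 genes, 0.40 ± 0.18 (adjusted p = 0.174), but its other probes gave -0.14 and 0.26. Herpud1, a scaffold of the degradation complex, read 5.25 and 9.42 on the arrays labelled Junb-deficient, against 9.05 and 13.2 on the controls. Its groups overlapped, because in each genotype array 2 was the higher one, and the difference was -0.64 ± 0.39.

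The sensors did not share a direction. Xbp1, the factor downstream of IRE1, read 19.5 and 23.8 on the arrays labelled Junb-deficient, against 37.5 and 37.4 on the controls. It was 1.74-fold lower (log2 -0.80 ± 0.17, adjusted p = 0.0654), and both other probes gave lower values too, at -0.93 and -0.87. Ern1, which encodes IRE1 itself, read 0.500 and 0.605 on the arrays labelled Junb-deficient, against 0.483 and 0.491 on the controls (0.17 ± 0.17). Atf6 read 0.497 and 0.688 on the arrays labelled Junb-deficient, against 0.830 and 0.962 on the controls. Its difference was -0.61 ± 0.23 (adjusted p = 0.132), while its other probe gave 1.19.

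Eif2ak3, which encodes PERK, read 4.54 on array 1 and 2.39 on array 2 labelled Junb-deficient, against 2.50 and 2.69 on the controls. Only array 1 was high, and the difference of 0.35 ± 0.36 rests on it. Without that array it was -0.12, and without array 2 it was 0.81. The second Eif2ak3 probe gave -0.32.

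**Figure D3:**
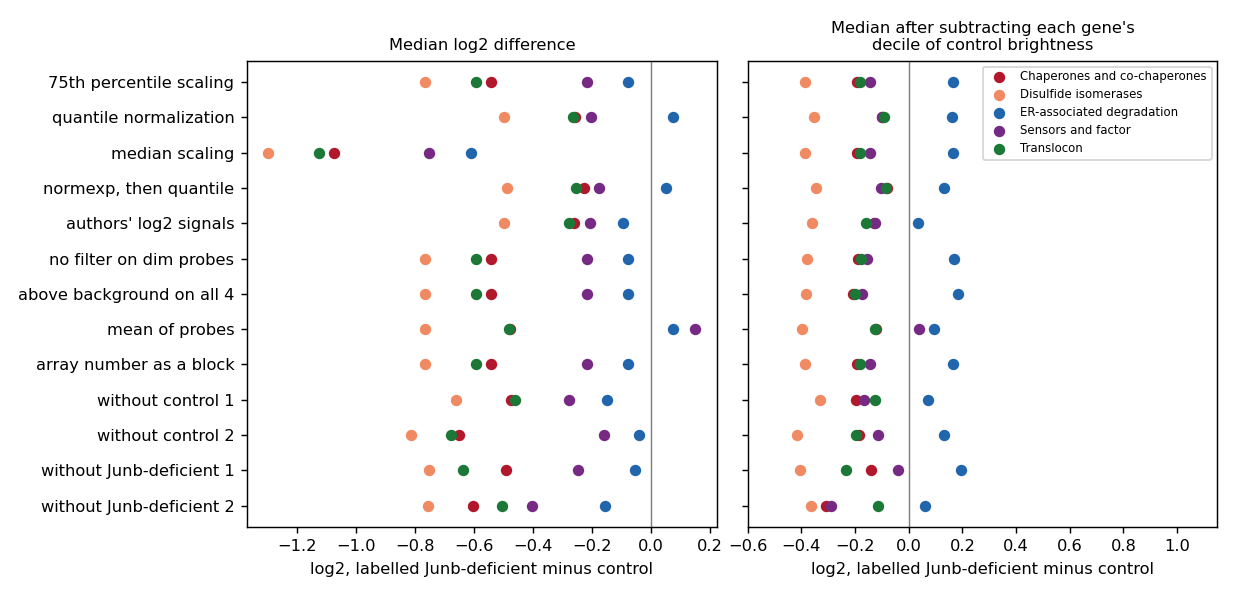
Median log2 difference of the genes of each role (left) and the same after subtracting the median of each gene's decile of control brightness (right), for 75th percentile scaling in the top row and each alternative below it. The disulfide isomerases lie furthest left and the degradation genes at or right of the others in every row except that with the mean of probes on the left, where the sensors are furthest right.

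Genes with and without an ERSE covered much the same range of differences. The 9 genes with the element had log2 differences from -0.87 (Hsp90b1) to 0.35 (Derl3), with a median of -0.48. The 19 genes with a window and without it ran from -1.22 to 0.40, with a median of -0.41. Sdf2l1, the lowest gene, and Xbp1 had windows with none of the 3 elements as spelled here, and for Manf no window was available. Of the genes whose sites are printed above, Hsp90b1 and Pdia6 (-0.79) were the lowest, while Syvn1 (-0.08) and Dnajc3 (0.13) lay near 0. Herpud1 and Dnajb11, with ERSE-II, gave -0.64 and -0.50.

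**Figure D4:**
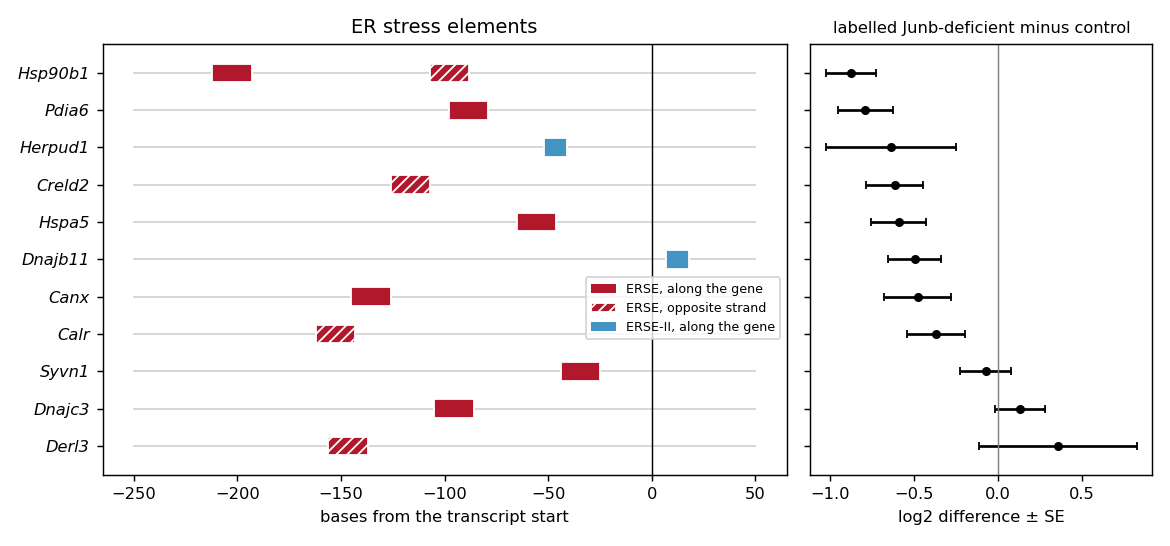
Left, positions of the ER stress elements in the window from 250 bases before to 50 after the transcript start, 1 gene per row. Right, the log2 difference of that gene (labelled Junb-deficient minus control) with its standard error. Genes with an element run from -0.87 for Hsp90b1 to 0.35 for Derl3.

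The PERK arm was followed through 12 genes around ATF4, none of them called, against 8.44% of all genes. ATF4 is the transcription factor that PERK and other kinases of eIF2α bring about, and it raises amino acid synthesis and stress genes. These genes varied far more between arrays of 1 genotype than the chaperones did. Asns, which encodes asparagine synthetase, read 0.602 on array 1 and 12.8 on array 2 labelled Junb-deficient, against 2.14 and 25.5 on the controls. Chac1, a glutathione-degrading enzyme raised by ATF4, read 0.147 and 5.26 on the arrays labelled Junb-deficient, against 0.184 and 6.99 on the controls. For both genes the arrays numbered 2 were the high ones in each genotype, by 21.3-fold and 35.7-fold on the arrays labelled Junb-deficient and by 11.9-fold and 38.0-fold on the controls.

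Trib3, a pseudokinase induced by ATF4 and CHOP, showed the same order, at 3.03 and 13.9 on the arrays labelled Junb-deficient against 3.39 and 12.2 on the controls. Atf4 itself read 63.1 and 129 on the arrays labelled Junb-deficient, against 91.4 and 157 on the controls. Between genotypes these 4 genes overlapped. The log2 differences were -1.41 ± 2.04 for Asns, -0.37 ± 2.64 for Chac1, 0.01 ± 1.04 for Trib3 and -0.41 ± 0.49 for Atf4. These errors include the difference between the numbers. Between arrays of the same number, Asns, Chac1 and Atf4 were lower in both comparisons, while Trib3 was lower for number 1 only. Of the 12 PERK arm genes, 4 were lower without overlap (38.5% of all genes) and 1 was higher without overlap (36.6%). Between the numbers, 9 of the 12 were higher on number 2 in both genotypes, and 6 differed by more than 1 log2 unit in both.

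No ER gene of the 35 differed by that much in both genotypes. Among the 35, 10 were higher on number 2 in both genotypes, 18 higher on number 1 in both and 7 mixed. For the 12 chaperones the median of number 2 minus number 1 was 0.01 on the arrays labelled Junb-deficient and -0.14 on the controls, against 1.504 and 1.19 for the PERK arm. Herpud1 was the ER gene with the largest such difference upwards, 0.84 and 0.55. These numbers come from the sample titles, and arrays of the same number also lie in the same row of the slide. The labels do not say whether a number marks a shared culture day or mouse.

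**Figure D5:**
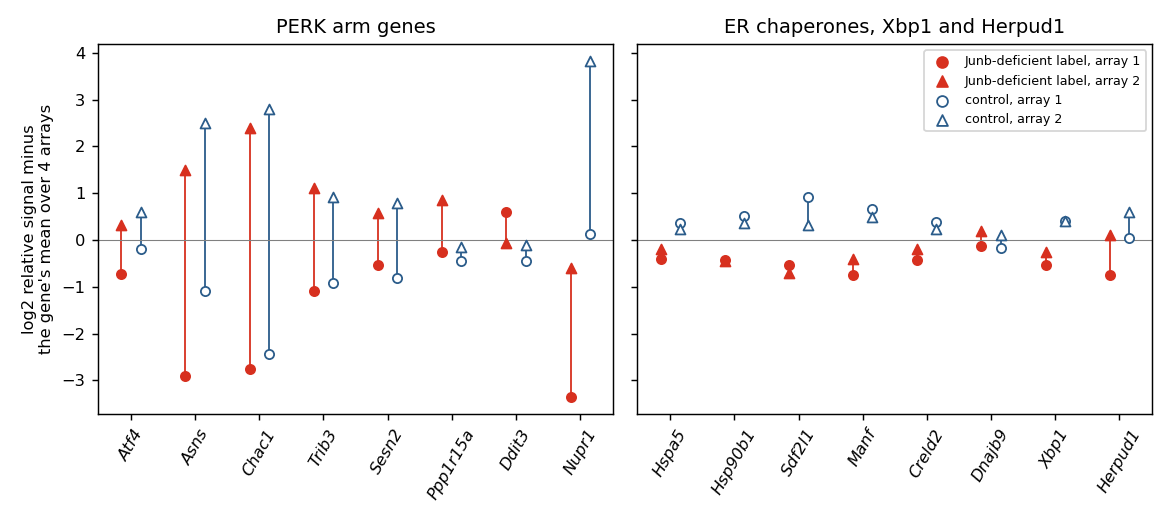
Log2 relative signal of each array is shown minus the gene's mean over the 4 arrays. Selected PERK arm genes are on the left, and selected ER chaperones, Xbp1 and Herpud1 on the right. Points are filled for arrays labelled Junb-deficient and open for controls, with circles for number 1 and triangles for number 2. Asns, Chac1 and Trib3 split by number within each genotype. Hspa5, Hsp90b1, Sdf2l1, Manf, Creld2 and Xbp1 separate by genotype, lower on the arrays labelled Junb-deficient, as do 38.5% of all genes. On the left, Nupr1 and Ddit3 also separate by genotype, Nupr1 lower and Ddit3 higher on the arrays labelled Junb-deficient. On the right, Dnajb9 and Herpud1 overlap. The PERK arm genes Ppp1r15b, Eif2s1 and Cebpb, all lower without overlap, and Atf3, which overlaps, are not shown.

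Among other genes of the PERK arm, Ddit3, which encodes the death-promoting factor CHOP, read 2.66 and 1.69 on the arrays labelled Junb-deficient, against 1.29 and 1.64 on the controls (0.54 ± 0.30, adjusted p = 0.238). Ppp1r15a (GADD34), the phosphatase subunit that ends the PERK signal, read 6.21 and 13.5 on the arrays labelled Junb-deficient, against 5.46 and 6.75 on the controls. Its groups overlapped, at 0.59 ± 0.44. Ppp1r15b, its constitutive relative, and Eif2s1, which encodes eIF2α, had the lowest p-values of the list and gave -0.72 ± 0.18 and -0.96 ± 0.19 (adjusted p = 0.0786 and 0.062). Nupr1, a stress-induced nuclear protein, read 0.0959 and 0.648 on the arrays labelled Junb-deficient, against 1.07 and 14.0 on the controls. It did not overlap but was not called (-3.95 ± 1.66, adjusted p = 0.157). Atf3, another stress factor, gave -1.93 ± 1.55 with overlap, and was not well above background on array 1 labelled Junb-deficient. Between arrays of the same number, Atf3 was lower in both comparisons and Ppp1r15a higher in both.

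Further lists of the secretory pathway read much like the ER genes, with no member called in any of them. Over all genes tested 8.44% were called, 1.42% as lower, and 49.5% were below 0. Of 26 tested genes of other ER folding factors 24 were below 0, with a median of -0.46, or -0.14 relative to their deciles. Erp29, a chaperone related to the isomerases, and Fkbp2, a prolyl isomerase, had the lowest p-values, at -0.80 ± 0.15 and -0.96 ± 0.18 (adjusted p = 0.057 and 0.0576). Of 25 genes of translocation and N-glycosylation 24 were below 0, with a median of -0.43, or -0.11 relative to their deciles. Srp72, a signal recognition particle protein, gave -0.64 ± 0.14, and Sec11c, a signal peptidase subunit, gave -0.61 ± 0.15. Of 14 further degradation genes 12 were below 0 (median -0.28, or 0.05 above their deciles), with Faf2 at -0.51 ± 0.15 and Ube2j1 at -0.63 ± 0.20.

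Relatives and partners of ATF6 and XBP1 lay on both sides, with 5 of 10 tested below 0 and 5 above, and a median of 0.04. Creb3l2, a membrane-bound factor processed like ATF6, read 1.87 and 1.69 on the arrays labelled Junb-deficient, against 3.17 and 4.35 on the controls (-1.07 ± 0.22, adjusted p = 0.0631). Nfya, a subunit of NF-Y, which binds the CCAAT part of the ERSE, read 7.42 and 11.1 on the arrays labelled Junb-deficient, against 1.95 and 3.60 on the controls. Its difference was 1.78 ± 0.40 (adjusted p = 0.0698), without overlap.

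Markers of other cells were read because B lineage cells, plasma cells above all, are rich in ER gene transcripts. A marker could be tested when well above background in 1 genotype alone, so the counts of markers above 0 are partly set by that filter. Of 11 listed B and plasma cell markers 7 were tested and 6 of these were above 0. The summed relative signal of the list was 13.3 and 10.3 on the arrays labelled Junb-deficient, against 9.12 and 10.8 on the controls. Its brightest gene was Pou2af1, the only tested marker below 0. Pou2af1 read 5.48 and 5.24 on the arrays labelled Junb-deficient, against 5.42 and 9.35 on the controls, so it weighs heavily in these sums. Ms4a1 (CD20), measured on all 4 arrays, passed the test as higher, at 1.54 and 1.82 on the arrays labelled Junb-deficient against 0.152 and 0.224 on the controls. Sdc1, also measured on all 4 arrays, read 0.421 and 0.337 on the arrays labelled Junb-deficient, against 0.131 and 0.196 on the controls. Its log2 difference was 1.23, and Cd22 and Cd79b, measured on all 4 arrays too, gave 1.20 and 1.14. None of these 3 was called. Of the 7 tested markers 5 were higher without overlap, against 36.6% of all genes. Jchain read 0.102 and 0.0782 on the arrays labelled Junb-deficient. On both controls it was not well above background, so it was tested only through the genotype where it was high. Tnfrsf17, a plasma cell receptor, was not well above background on any array, and Mzb1, an ER protein of B cells, on 1 array of each genotype.

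Summed T cell markers read 783 and 697 on the arrays labelled Junb-deficient, against 893 and 869 on the controls, with 5 of 8 below 0 and 3 above. Thy1 and Cd2 passed the test as lower, while Cd4 (-0.54), Lck (-0.27) and Cd3e (-0.15) did not pass. All 5 of these were lower without overlap, against 38.5% of all genes. The markers Cd3d (0.13) and Cd3g (0.21) were higher without overlap, against 36.6% of all genes, and did not pass. Treg markers summed to 29.0 and 49.9 on the arrays labelled Junb-deficient, against 96.3 and 94.0 on the controls, most of it Il2ra, which was not called. The 4 Treg markers did not share a direction. Ctla4 passed the test as lower (-1.47, adjusted p = 0.0479), whereas Ikzf2 (Helios) passed as higher, at 6.70 and 7.09 on the arrays labelled Junb-deficient against 0.462 and 0.184 on the controls (4.56, adjusted p = 0.0323). Foxp3 was well above background on all 4 arrays and gave -1.20 ± 0.46 (adjusted p = 0.133). Myeloid markers summed to 62.3 and 32.6 on the arrays labelled Junb-deficient, against 26.6 and 17.7 on the controls, most of it Itgam, and all 8 tested were above 0. The macrophage marker Adgre1 was not well above background on any array. Stromal markers summed to 17.8 and 18.1 on the arrays labelled Junb-deficient, against 28.9 and 24.3 on the controls, most of it Acta2, and 4 of 5 tested were above 0. Dcn, the only one called, was not well above background on either control. Colon epithelium markers summed to 3.45 and 4.03 on the arrays labelled Junb-deficient, against 2.50 and 3.44 on the controls, and Krt20, Vil1, Cdh1 and Muc2 were not well above background on any array. The CD8 markers summed to 3.69 and 4.19 on the arrays labelled Junb-deficient, against 2.92 and 2.51 on the controls. The part of these cells in the ER gene values was not tested.

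In the authors' deposited table, 27 of the 35 ER genes had a log2 difference below 0, with a median of -0.24, and 0 had an adjusted p under 0.05, against 2.41% of its rows. Manf (-0.999), Sdf2l1 (-0.98) and Xbp1 (-0.65) were the lowest in the authors' deposited table, with adjusted p-values there of 0.0521, 0.0629 and 0.0689. Those 3 genes were also among the 5 lowest in the fit above, together with Hsp90b1 and Ssr1.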

How the data were processed

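Total RNA of 4 samples was labelled with Cy3 and read on 4 arrays of 1 slide in 1 scan. Per the file headers, Agilent Feature Extraction 11.5.1.1 gave each spot a processed intensity (background removed, spatial trend corrected, no scaling between arrays), mean and local background intensities, and quality flags. Probe positions are on mm9. The authors also deposited log2 signals per array with log2 differences and p-values; their making is not described in the labels or headers.

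Flagged outlier spots (108 to 215 of 59305 per array) were left out, spots of a probe averaged, and 56310 probes kept. No spot was saturated, and 59.3% to 66.3% were well above background. The log2 processed signal minus each array's 75th percentile (101 to 151 in processed signal) was used. A probe had to be well above background on each array of 1 genotype or the other, and the brightest stood for its gene, named by RefSeq (GRCm38.p6) accession for 33731 probes, by current symbol for 9409, by synonym for 486 and by the name in the file for 12684. The test was the moderated one of limma 3.58.1 in R 4.3.3, by lmFit then eBayes, without covariate, with Benjamini-Hochberg adjustment over all genes, an adjusted p under 0.05 counting as called. The fit was tested on simulated data. Tables were made with Python 3.11.15, pandas 2.3.3 and numpy 2.4.6, figures with matplotlib 3.10.9.

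Alternatives were quantile normalization, median scaling, normexp background (offset 50), the authors' log2 signals, other filters, the mean of probes, array number as a block, other brightness bins and leaving out each array. All arrays lay on 1 slide, so the slide could not serve as a block. The ER genes and the other lists were chosen with earlier results of these data known. All 35 ER genes, Junb, 8 PERK arm genes and, of each further pathway list, up to 6 called genes or otherwise its 2 with the lowest p, are named. Cell type markers are summed, with called and defining ones named. C-terminal retention signals were not analysed here.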

Additional observations from a re-analysis of the deposited data

How the results depend on the processing

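Scaling set the size of the shift. The median log2 difference of the ER genes, -0.49 with 75th percentile scaling, was -0.24 with quantile normalization, -0.19 with normexp background and quantile normalization, -0.24 in the authors' log2 signals and -1.02 with median scaling, which also moved the median of all genes to -0.52. It lay between -0.55 and -0.40 when 1 array was left out. Relative to genes of like control brightness it stayed between -0.20 and -0.06 under all alternatives run. The 0 called ER genes became 24 with median scaling (33.1% of all genes called lower), 9 with array number as a block (9.31%), 2 among genes above background on all 4 arrays (Hsp90b1 and Manf, 1.55%) and 1 with the mean of probes (Manf, 1.35%).

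Over all genes limma called 1897, and 454 with quantile normalization, 9405 with median scaling, 315 with normexp background, 583 in the authors' log2 signals, 0 without a filter (8819 at an unadjusted p under 0.05), 1253 above background on all 4 arrays and 6854 with array number as a replicate block. Leaving out any 1 array gave 0 calls (unadjusted p under 0.05 for 4957 to 8136 genes). Of the calls 83.1% were higher with 75th percentile scaling, 77.8% with quantile normalization, 21.0% with median scaling, 73.7% with normexp background, 73.6% in the authors' log2 signals and 69.5% with the block. The 9 ER genes called with the block were Hsp90b1, Manf, P4hb, Pdia4, Pdia6, Sdf2l1, Sil1, Ssr1 and Xbp1, all lower. Number 1 minus number 2 differences correlated at 0.50 across genes between the genotypes, but with 2 pairs this does not show that the numbers pair the samples.

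The sign held under all 12 alternatives for 21 ER genes and turned for 14, none of them called where it turned. With median scaling, Derl3, Dnajb9, Dnajc3, Edem3, Eif2ak3 and Ern1 gave -0.18, -0.46, -0.40, -0.13, -0.19 and -0.36. With quantile normalization, Derl1, Pdia3, Sel1l and Syvn1 gave 0.072, 0.0058, 0.20 and 0.25, and with normexp background 0.049, 0.017, 0.19 and 0.24, with Hyou1 at 0.40. In the authors' log2 signals Derl1 and Syvn1 gave 0.018 and 0.21. With the mean of probes, Atf6, Derl1, Hyou1, Sel1l, Sil1 and Syvn1 gave 0.29, 0.076, 0.15, 0.074, 0.29 and 0.15. Leaving out 1 array turned 5 genes, whose values ranged from -0.18 to 0.89 (Derl3), -0.090 to 0.23 (Dnajb9), -0.16 to 0.075 (Edem2), -0.12 to 0.81 (Eif2ak3) and -0.15 to 0.0015 (Syvn1). The cause of these changes was not tested.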

Other observations

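The oxidase genes Ero1a and Ero1b, which recharge the disulfide isomerases, were read after their values had been seen. Ero1a read 5.33 and 5.41 on the arrays labelled Junb-deficient, against 8.96 and 8.34 on the controls (log2 -0.69 ± 0.14, adjusted p = 0.0635). Ero1b read 2.61 and 6.17 on the arrays labelled Junb-deficient, against 0.394 and 1.13 on the controls (2.59 ± 0.72, adjusted p = 0.0861). The groups did not overlap for either gene, and the differences had opposite signs. Neither passed the test. The difference between the 2 genes was not tested.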
